A study of Mus musculus with 17 samples.

Results

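The genes described are Edn1, which encodes endothelin-1, its receptor Ednrb and its processing enzyme Ece1, together with the growth factor genes Vegfa, Hbegf, Inhba, Tgfb1, Pdgfa, Pdgfb and Igf1. They were chosen by symbol with earlier results of these data known, and all 10 were found among the 21683 genes listed in the expression table. Their mRNA was measured by RNA sequencing in 17 libraries of cultured mouse peritoneal macrophages. The cells came from 8-week-old C57BL/6 mice that carried loxP-flanked alleles of IKKβ, the kinase that activates NF-κB. IKKβF/F mice (F/F) kept IKKβ, and IKKβΔMye mice (ΔMye) also carried 1 LysM-Cre knock-in allele, which removes the flanked sequence in myeloid cells that express lysozyme. Every mouse received 1 mL of 3% thioglycollate in the peritoneum; the labels place the injection 3 days before collection, whereas the written protocol has 4 days. The cells attached to plates for 4 hours and were then exposed for 12 hours to PBS or to 100 nM recombinant HIV protein Tat, the viral activator of transcription that infected cells also release. The groups were F/F PBS (n = 6), F/F Tat (n = 6) and ΔMye Tat (n = 5). The labels list no ΔMye libraries with PBS, so an effect of genotype under Tat cannot be told apart from one that was present before Tat. The labels do not name the mouse behind each library, the study's captions describe the libraries as replicates from different mice, and the p-values measure the spread between these libraries.

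Endothelin-1 is made as a longer precursor that endothelin converting enzyme 1 cleaves into a vasoconstrictor peptide, which acts through the endothelin receptors A and B. VEGF-A directs the growth and permeability of blood vessels, PDGF recruits smooth muscle cells and pericytes, and HB-EGF is shed from the cell membrane to activate EGF receptors. Activin A, a dimer of the Inhba product, and TGF-β1 signal through receptor kinases to SMAD proteins, and insulin-like growth factor 1 supports cell growth and survival; macrophages are known to make each of these factors in the vessel wall or in healing tissue.

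Ikbkb, the gene of IKKβ, lay between 24.5 and 30.1 TPM in F/F PBS, from 21.6 to 25.4 TPM in F/F Tat, but only from 12.8 to 19.9 TPM in ΔMye Tat (TPM is transcript abundance scaled for transcript length and for the total of the library). It was lower in ΔMye Tat than in F/F Tat by a log2 difference of -0.51 (adjusted p = 4.51e-05, limma), with no overlap of libraries. This is a 1.43-fold lower level, and the log2 difference was -0.73 after scaling each library by the median ratio over genes. TPM of the whole gene does not separate transcripts with the flanked sequence from those without it. It therefore does not measure how much IKKβ was left. The study reported lower IKKβ mRNA and protein in peritoneal macrophages of ΔMye mice. Lyz2, the locus that carries the Cre, fell from a mean of 6993 TPM in F/F Tat to 4333 TPM in ΔMye Tat (log2 difference -0.69, adjusted p = 1.32e-13, limma). Of the 8 macrophage markers examined, 8 reached a mean of 1 TPM in each of the 3 groups. TPM gives no read depth, so the counting error of each value is unknown.

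Sequences before starts of Edn1, Inhba, Ednrb and Vegfa are shown first, because the study asked which responses pass through IKKβ and NF-κB. Each of these genes changed by more than 3-fold with Tat, as did Hbegf. RefSeq starts matched by symbol were used for 8 of the 10 genes, with 13 starts in all. No window was searched for Hbegf or Pdgfb, so their upstream sequences are not described. Each line below gives the 250 bases before the start on the gene's own strand, 5′ to 3′, from build GRCm38.p6, with every match to the searched motifs in capitals. Edn1 lies at chr13:42301226-42301475 on the plus strand, Inhba at chr13:16011601-16011850 on the plus strand, Ednrb at chr14:103843702-103843951 on the minus strand and the more upstream Vegfa start at chr17:46032378-46032627 on the minus strand.
Edn1: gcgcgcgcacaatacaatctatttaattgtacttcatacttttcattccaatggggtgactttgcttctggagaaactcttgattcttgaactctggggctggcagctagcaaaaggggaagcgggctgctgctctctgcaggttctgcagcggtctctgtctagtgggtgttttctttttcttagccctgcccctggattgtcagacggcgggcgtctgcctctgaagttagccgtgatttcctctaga
Inhba: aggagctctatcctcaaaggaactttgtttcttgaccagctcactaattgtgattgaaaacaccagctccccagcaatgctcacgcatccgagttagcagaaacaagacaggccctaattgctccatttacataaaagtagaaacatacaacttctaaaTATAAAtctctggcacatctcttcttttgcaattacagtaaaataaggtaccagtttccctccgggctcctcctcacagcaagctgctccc
Ednrb: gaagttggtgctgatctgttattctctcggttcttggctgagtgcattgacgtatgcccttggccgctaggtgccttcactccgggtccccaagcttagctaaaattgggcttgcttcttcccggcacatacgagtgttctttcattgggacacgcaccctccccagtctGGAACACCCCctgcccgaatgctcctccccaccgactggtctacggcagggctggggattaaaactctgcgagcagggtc
Vegfa: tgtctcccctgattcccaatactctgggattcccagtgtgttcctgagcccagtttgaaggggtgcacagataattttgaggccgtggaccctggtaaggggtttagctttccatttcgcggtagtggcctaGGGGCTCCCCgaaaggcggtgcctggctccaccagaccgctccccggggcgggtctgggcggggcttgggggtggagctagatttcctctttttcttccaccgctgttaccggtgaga
The search covered both strands for the NF-κB consensus, the AP-1 motif TGANTCA, the CREB and ATF motif TGACGTCA, the TATA box TATAAA, the hypoxia response core ACGTG and the STAT motif TTCNNNGAA. The NF-κB consensus was GGGRNNYYCC, with R for A or G, Y for C or T and N for any base. The capitals mark a match to TATAAA in the Inhba window from 91 to 86 bases before the start. They mark a match to the NF-κB consensus from 80 to 71 bases before the Ednrb start and from 118 to 109 bases before the Vegfa start. The Ednrb window lies before a RefSeq start but inside the span that GENCODE gives for the gene. The 5′ end of that span is at base 103844402, so a start further upstream is annotated. The Ednrb match reads on the strand opposite to the one printed, and the Vegfa match on both strands. The Edn1 window held none of the 6 motifs. Over all 32851 RefSeq windows of the same length, the share with a match was 7.25% for the NF-κB consensus, 6.75% for TGANTCA, 1.55% for TGACGTCA, 12.4% for TATAAA, 16.6% for ACGTG and 7.02% for TTCNNNGAA. A match is a run of letters and was not shown to be a bound site. Among the windows not printed, the NF-κB consensus matched before Tgfb1 from 140 to 131 bases and before 1 of the Pdgfa starts from 49 to 40 bases. TGANTCA matched before Igf1 from 37 to 31 bases, and ACGTG matched before 1 of the Ece1 starts and the downstream Vegfa start. The windows of these Pdgfa, Igf1, Ece1 and Vegfa matches lie inside the GENCODE spans of their genes, downstream of the outermost annotated start.

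With Tat, Edn1, Inhba and Hbegf rose in F/F macrophages and Ednrb and Vegfa fell, each by more than 3-fold. Igf1 and Pdgfa fell by less than 3-fold, Ece1 did not pass the test, and the small differences of Tgfb1 and Pdgfb depended on the scaling. In the ΔMye libraries, Ednrb was higher and Vegfa and Hbegf were lower than in the F/F libraries under Tat, and no gene of the 10 differed by more than 3-fold between the genotypes.

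Differences were tested with limma on log2(TPM + 0.1), and p-values were adjusted by Benjamini-Hochberg over the 10451 genes that reached 1 TPM in at least 5 libraries, which included all 10. With Tat, 4 genes were called higher at an adjusted p under 0.01, against 17% of all tested genes, and 5 were called lower, against 67.6%. With a fold change over 3 as a further condition, 3 were higher, against 5.21%, and 2 were lower, against 19.4%. Between the genotypes under Tat, the adjusted p alone called 3 higher in ΔMye, against 38.8%, and 2 lower, against 8.87%. With the fold condition, 0 genes were higher, against 0.44%, and 0 were lower, against 0.316%; the widest difference of the 10 was 2.02-fold (Ednrb), so the count is 0 at an unadjusted p under 0.05 as well. The 3 higher genes in ΔMye Tat are thus no larger a share than among all genes. Because the 10 genes were chosen with earlier results known, their shares are not independent of these data.

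These backgrounds depend on the scale. The TPM values as deposited placed the median log2 difference of all tested genes at -0.65 with Tat and at 0.22 between the genotypes, and scaling each library by the median ratio over genes moved these medians to -0.03 and 0.01. After that scaling, 4 of the 10 genes were higher and 4 lower with Tat, against 37.2% and 38.0% of all tested genes. In ΔMye Tat against F/F Tat, 1 was then higher and 5 were lower, against 15.9% and 19.4%. Scaled values are therefore given beside those on the deposited scale; they express a change relative to the typical gene. The median log2 difference of the 10 genes was -0.18 with Tat on the deposited scale and 0.44 after scaling, and between the genotypes it was -0.20 and -0.42.

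**Figure D1:**
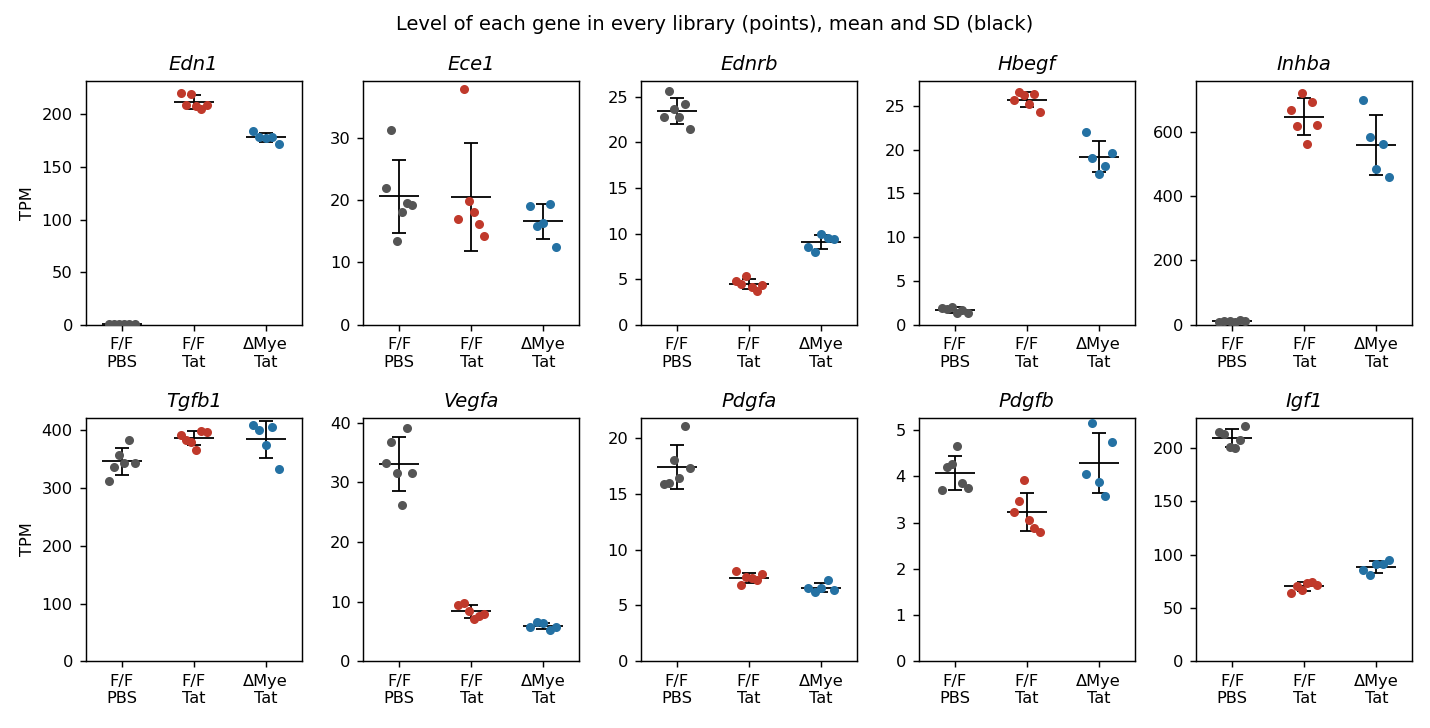
TPM of each of the 10 genes in every library (points) of F/F PBS (n = 6), F/F Tat (n = 6) and ΔMye Tat (n = 5), with the mean (line) and SD (bars) in black and an axis from 0 for each gene. Edn1, Hbegf and Inhba are low in all F/F PBS libraries, Ednrb, Vegfa, Pdgfa and Igf1 are high there, and Ece1 has single high libraries at 31.3 TPM in F/F PBS and 37.9 TPM in F/F Tat.

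Edn1 (chromosome 13, 42301476 to 42307990 of GRCm38) was barely listed without Tat and was among the abundant genes with it. Its exons overlap those of Gm47118 on the opposite strand, and 0.569% of its 31-base sequences are also found in another gene's transcripts. The F/F PBS libraries ranged from 0.202 to 0.847 TPM with a median of 0.316 TPM. The F/F Tat libraries ranged from 205 to 221 TPM with a median of 209 TPM, and the ΔMye Tat libraries had 184, 178, 178, 178 and 172 TPM. The 3 groups did not overlap: every F/F Tat library was above every ΔMye Tat library, and both stood far above F/F PBS. The ratio of the F/F Tat mean to the F/F PBS mean was 532. The log2 difference was 8.86 (SE 0.19, adjusted p = 4.53e-19, limma), 9.40 after scaling, and it ranked 2 from the highest among 10451 genes. By mean TPM, Edn1 moved from place 11155 of all listed genes in F/F PBS to place 620 in F/F Tat and place 700 in ΔMye Tat.

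The Edn1 difference between the genotypes was small, and so was the spread within each Tat group. The mean was 212 ± 6.57 TPM (SD, n = 6) in F/F Tat and 178 ± 4.39 TPM (SD, n = 5) in ΔMye Tat, a coefficient of variation of 3.10% and 2.46%. The log2 difference was -0.25 (SE 0.20, adjusted p = 0.288, limma) in the fit of all 3 groups, so it was not called there. After median-ratio scaling it was -0.47 and again not called (adjusted p = 0.0411, limma). The groups did not overlap, and the exact two-sided permutation p was 0.00216, the smallest that 6 against 5 libraries allow. In a limma fit of the 2 Tat groups alone the difference was called (adjusted p = 9.71e-06). The fit of all groups shares 1 spread estimate for Edn1, to which the F/F PBS libraries, with a coefficient of variation of 61.4%, contributed. Over the alternatives the adjusted p ran from 9.71e-06 to 0.392. Against F/F PBS, the ΔMye Tat libraries were higher by a log2 difference of 8.61; that comparison shares libraries with the other pair and mixes genotype with Tat.

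Ece1, the enzyme that releases the active peptide, had means of 20.6, 20.6 and 16.6 TPM in F/F PBS, F/F Tat and ΔMye Tat. Values in F/F PBS ranged from 13.5 to 31.3 TPM with a median of 19.3 TPM, and the F/F Tat libraries from 14.2 to 37.9 TPM with a median of 17.6 TPM. The ΔMye Tat libraries had 19.1, 15.8, 16.3, 19.4 and 12.5 TPM, within the range of the others. Neither difference passed the test: the log2 difference was -0.04 with Tat (SE 0.20, adjusted p = 0.857, limma) and -0.24 between the genotypes (SE 0.21, adjusted p = 0.340). The sign with Tat turned on scaling, to 0.59 (adjusted p = 0.01004, just above the threshold). Between the genotypes the scaled difference was -0.46 (adjusted p = 0.0752, limma). Ece1 varied more between replicates than any other of the 10 genes in F/F Tat, with a coefficient of variation of 42.3%.

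Ednrb, the B receptor, which also clears endothelin from tissue, moved opposite to its ligand. The F/F PBS libraries ranged from 21.5 to 25.6 TPM with a median of 23.2 TPM. The F/F Tat libraries ranged from 3.75 to 5.29 TPM with a median of 4.37 TPM, and the ΔMye Tat libraries had 8.56, 8.03, 9.96, 9.48 and 9.43 TPM. No library of 1 group reached the range of another, and the ΔMye Tat libraries lay between the F/F groups. With Tat the log2 difference was -2.37 (SE 0.08, adjusted p = 3.58e-16, limma), -1.74 after scaling. Between the genotypes it was 1.01 (SE 0.08, adjusted p = 4.81e-09), 0.80 after scaling, the highest of the 10 genes, and it kept its call under every alternative tried, with values from 0.71 to 1.06. Against F/F PBS, Ednrb in ΔMye Tat was still lower by a log2 difference of -1.36.

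Of the 7 other endothelin system genes examined, 0 reached the level needed for the test. Edn2 and Kel, a metalloprotease that processes endothelin-3, were listed at 0 in all libraries. Ednra, the A receptor, had mean levels of 0.132, 0.0669 and 0.0405 TPM in F/F PBS, F/F Tat and ΔMye Tat. Ece2 and the endothelin-degrading enzyme Mme were at or below a mean of 0.0270 TPM in every group. Of the endothelin system, the ligand Edn1, Ece1 and the B receptor were thus the members with levels above the filter.

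Hbegf (chromosome 18, 36504927 to 36515805 of GRCm38) rose with Tat in every library. Its values in F/F PBS ranged from 1.30 to 2.03 TPM with a median of 1.71 TPM, and the F/F Tat libraries from 24.3 to 26.6 TPM with a median of 26.0 TPM. In ΔMye Tat the values were 21.98, 19.001, 17.2, 18.2 and 19.6 TPM. The groups did not overlap, with ΔMye Tat below F/F Tat and far above F/F PBS. With Tat the log2 difference was 3.88 (SE 0.09, adjusted p = 2.46e-18, limma), 4.49 after scaling, rank 103 of 10451. Between the genotypes Hbegf was lower by -0.42 (SE 0.10, adjusted p = 0.00107), -0.64 after scaling.

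The EGF family ligands and shedding enzymes around Hbegf did not move as a block. Of 19 further genes of that system, 8 were tested, 4 of them were called higher and 3 lower with Tat, and 2 were higher and 2 lower in ΔMye Tat than in F/F Tat. The shares over all tested genes were 17% and 67.6% with Tat and 38.8% and 8.87% between the genotypes. After median-ratio scaling 5 of the 8 were higher and 2 lower with Tat, against 37.25% and 38.0% of all tested genes. Between the genotypes 2 were then higher and 5 lower, against 15.9% and 19.4%. Areg, the amphiregulin gene, rose from 0.0479 to 2.85 TPM and had 0.947 TPM in ΔMye Tat (log2 difference 4.30 with Tat and -1.45 between the genotypes). Nrg1, neuregulin 1, rose from 0.547 to 3.26 TPM. Errfi1, a feedback inhibitor of EGF receptors, rose from 3.57 to 10.5 TPM and was lower in ΔMye Tat at 5.84 TPM. The membrane proteases that shed these ligands went the other way: Adam17 fell from 114 to 59.3 TPM and had 109.6 TPM in ΔMye Tat, and Adam10 fell from 65.7 to 17.4 TPM and had 26.8 TPM in ΔMye Tat. With Tat the log2 difference of Adam17 was -0.94, and only -0.31 after scaling, and that of Adam10 was -1.91, and -1.28 after scaling. Both proteases were higher in ΔMye Tat than in F/F Tat, by 0.89 and 0.62 on the log2 scale, and after scaling by 0.66 and 0.40. Egfr itself was below the filter, at a mean of 0.312, 0.404 and 0.285 TPM in F/F PBS, F/F Tat and ΔMye Tat. Erbb3, which binds neuregulins, was lower with Tat at 0.580 TPM against 1.18 TPM, a difference of -0.91 that lost its call on median-ratio scaling (-0.34) and turned to 0.41 with quantile normalization.

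Inhba (chromosome 13, 16011851 to 16031621) was the most abundant of the 10 genes in both Tat groups. Without Tat, the F/F libraries ranged from 7.26 to 15.2 TPM with a median of 10.8 TPM, and the F/F Tat libraries from 563 to 723 TPM with a median of 646 TPM. In ΔMye Tat the values were 701, 585, 486, 564 and 461 TPM and overlapped with F/F Tat, but not with F/F PBS. The log2 difference with Tat was 5.90 (SE 0.13, adjusted p = 1.13e-18, limma), 6.53 after scaling, rank 29 of 10451. Between the genotypes it was -0.22 (SE 0.14, adjusted p = 0.180), and it was called only on median-ratio scaling among the alternatives (-0.44, adjusted p = 0.00680).

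Of 12 further genes of the activin system, 4 were tested. With Tat 3 were called higher and 0 lower (limma), against 17% and 67.6% of all tested genes. Between the genotypes 0 were called, against 38.8% higher and 8.87% lower. At an unadjusted p under 0.05, 1 was lower with Tat, and 1 was higher and 1 lower between the genotypes. After scaling 3 were again called higher with Tat, against 37.25% of all tested genes, and 1 was lower between the genotypes, against 19.4%. Fst, follistatin, which binds and neutralises activin, rose from 0.0837 to 2.48 TPM (log2 difference 4.02) and had 1.53 TPM in ΔMye Tat. The difference between the genotypes for Fst, -0.70, missed the threshold (adjusted p = 0.0605, limma), although the libraries did not overlap. It was -0.92 after median-ratio scaling (adjusted p = 0.0120, limma), and it was called with a pseudocount of 1 (adjusted p = 0.000951). The type I receptors Acvr1b and Acvr1 rose from 17.1 to 27.2 TPM and from 6.01 to 7.98 TPM. Inha, whose product pairs with the Inhba product to form inhibin, had a mean of at most 0.0193 TPM in the 3 groups, and Inhbc and Inhbe were listed at 0 in all libraries.

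Tgfb1 was the highest of the 10 genes without Tat and changed little. The F/F PBS libraries ranged from 313 to 383 TPM with a median of 343 TPM, and the F/F Tat libraries from 366 to 399.7 TPM with a median of 388 TPM. In ΔMye Tat they were 410.0, 401, 375, 406 and 333 TPM. All groups overlapped with each other. The log2 difference with Tat was 0.16 (SE 0.05, adjusted p = 0.00523, limma), 0.80 after median-ratio scaling and -0.09 with quantile normalization, so its direction depended on the scale. The call on the deposited scale was lost, at adjusted p up to 0.0163, when any of F/F PBS libraries 1, 2 and 4 or F/F Tat libraries 7, 11 and 12 was left out. Between the genotypes the difference was -0.01 (adjusted p = 0.882), and -0.23 after median-ratio scaling (adjusted p = 1.09e-04).

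Of 24 further genes that activate, bind or transmit TGF-β, 19 were tested, 7 were called higher, 8 lower and 4 neither with Tat, against 17% higher and 67.6% lower of all tested genes. In ΔMye Tat 8 were higher and 5 lower than in F/F Tat, against 38.8% and 8.87%. After median-ratio scaling 10 were higher and 7 lower with Tat, against 37.25% and 38.0% of all tested genes. Between the genotypes the balance turned, with 4 higher and 6 lower, against 15.9% and 19.4%. Thbs1, thrombospondin 1, rose from 99.2 to 724 TPM, Furin, which cleaves the TGF-β precursor, from 64.6 to 364 TPM, and Itgb8, an integrin subunit that binds the latent form, from 0.104 to 6.61 TPM. In ΔMye Tat these 3 were lower than in F/F Tat, at 264, 242 and 4.50 TPM, with log2 differences of -1.47, -0.60 and -0.57. The Itgb8 call was near the threshold (adjusted p = 0.00520, limma) and was lost, at adjusted p up to 0.0184, without any 1 of F/F Tat libraries 7, 8, 9 and 12 or ΔMye Tat libraries 20, 21 and 23. Itgav, the integrin subunit that pairs with Itgb8, was added to the named genes after its values were seen. It rose from 16.3 to 36.1 TPM and was higher in ΔMye Tat at 47.7 TPM, a log2 difference of 0.40 (adjusted p = 0.000248, limma) that was 0.18 and not called after scaling (adjusted p = 0.0200). The co-receptor Eng, endoglin, rose from 17.8 to 94.6 TPM and was lower in ΔMye Tat at 63.0 TPM.

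Receptor kinases of this list fell with Tat. Tgfbr2 fell from 33.7 to 4.04 TPM, a log2 difference of -3.03, and Tgfbr1 from 28.0 to 8.52 TPM, a difference of -1.70. Acvrl1, a type I receptor, fell from 13.3 to 5.53 TPM, and the inhibitory SMAD gene Smad6 fell from 4.37 to 0.363 TPM. Tgfbr1, Acvrl1 and Smad6 were higher in ΔMye Tat than in F/F Tat, at 17.4, 11.1 and 1.35 TPM, with log2 differences of 1.01, 0.99 and 1.63. Nrros, which anchors latent TGF-β on macrophages, fell from 177 to 47.2 TPM, and its difference between the genotypes of 0.30 lost its call after scaling (0.08, adjusted p = 0.130, limma), as did that of Tgfbr2, from 0.36 to 0.15 (adjusted p = 0.0847).

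Vegfa (chromosome 17, 46016993 to 46032369) fell with Tat and was lower still in ΔMye Tat. In F/F PBS the values ranged from 26.2 to 39.1 TPM with a median of 32.4 TPM, and the F/F Tat libraries from 7.11 to 9.85 TPM with a median of 8.21 TPM. In ΔMye Tat they were 5.76, 6.61, 6.36, 5.28 and 5.84 TPM. The groups did not overlap, and ΔMye Tat lay below F/F Tat and not between the F/F groups. With Tat the log2 difference was -1.96 (SE 0.10, adjusted p = 1.93e-13, limma), and after scaling it was -1.33, a fold under 3. Between the genotypes it was -0.48 (SE 0.10, adjusted p = 4.54e-04), -0.70 after scaling, with values from -0.70 to -0.43 over the alternatives, all of them called. The exact two-sided permutation p for the 2 Tat groups was 0.00433.

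Of 13 further VEGF and angiopoietin genes listed, 6 were tested. With Tat 3 were called higher and 2 lower, against 17% and 67.6% of all tested genes. In ΔMye Tat 1 was higher and 2 were lower than in F/F Tat, against 38.8% and 8.87%. After scaling 4 were higher and 2 lower with Tat, against 37.25% and 38.0% of all tested genes. The counts between the genotypes were again 1 and 2, against 15.9% and 19.4%. Vegfb fell from 42.1 to 6.70 TPM, a log2 difference of -2.64. The co-receptors diverged: Nrp1 fell from 74.8 to 13.5 TPM and had 23.05 TPM in ΔMye Tat, whereas Nrp2 rose from 75.1 to 218 TPM and had 257 TPM in ΔMye Tat, a further difference of 0.23 that did not pass the test (adjusted p = 0.0867, limma), but did without ΔMye Tat library 23 (adjusted p = 0.00499). Kdr, VEGF receptor 2, rose from 4.46 to 7.54 TPM and was lower in ΔMye Tat at 4.63 TPM. Flt4, VEGF receptor 3, rose from 0.122 to 1.19 TPM and was lower in ΔMye Tat at 0.532 TPM. Tek, the angiopoietin receptor, was listed at 0 in all libraries.

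Pdgfa and Pdgfb encode the A and B chains of PDGF. Pdgfa (chromosome 5, 138976014 to 138997370) ranged from 15.8 to 21.05 TPM with a median of 16.9 TPM in F/F PBS and from 6.84 to 8.10 TPM with a median of 7.48 TPM in F/F Tat, with no overlap. The ΔMye Tat libraries had 6.58, 6.20, 6.56, 7.24 and 6.39 TPM. Pdgfa fell with Tat by a log2 difference of -1.20 (SE 0.07, adjusted p = 3.93e-12, limma), -0.57 after scaling. The difference between the genotypes was -0.18 (adjusted p = 0.0427) and was called only after scaling, at -0.40 by median ratio. Of the 31-base sequences of the Pdgfa transcripts, 23.3% are also found on the opposite strand in transcripts of the gene 6330403L08Rik, whose exons overlap it. The strand setting of the libraries is not given in the sources used here, so reads of this pair may not be separated.

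Pdgfb stayed low. It ranged from 3.71 to 4.65 TPM with a median of 4.02 TPM in F/F PBS and from 2.80 to 3.93 TPM with a median of 3.15 TPM in F/F Tat, and the ΔMye Tat libraries had 4.04, 5.15, 3.88, 3.58 and 4.74 TPM. All groups overlapped. The log2 difference with Tat was -0.33 (SE 0.11, adjusted p = 0.00670, limma) on the deposited scale, and it turned to 0.29 on median-ratio scaling and 0.68 with quantile normalization. Between the genotypes it was 0.39 (SE 0.11, adjusted p = 0.00500), and 0.18 after scaling (adjusted p = 0.213). The first call was lost without F/F PBS library 2, 3 or 4 or F/F Tat library 7, 10, 11 or 12, and the second without F/F Tat library 10, 11 or 12 or ΔMye Tat library 20 or 23, with adjusted p up to 0.0191 and 0.0203. Of 5 further PDGF genes, 2 were tested: Pdgfrb, the receptor of the B chain, rose from 0.207 to 2.03 TPM (log2 difference 2.87), and Pdgfra fell from 1.29 to 0.708 TPM on the deposited scale only, since its difference of -0.75 was not called after median-ratio scaling and turned to 0.51 with quantile normalization.

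Igf1 (chromosome 10, 87858265 to 87937042) fell with Tat by just under 3-fold. In F/F PBS the range was from 199.7 to 220.2 TPM with a median of 209.9 TPM, and the F/F Tat libraries from 63.9 to 73.9 TPM with a median of 71.2 TPM. The ΔMye Tat libraries had 85.4, 80.8, 91.4, 91.2 and 94.8 TPM, above all F/F Tat libraries and below all F/F PBS libraries. The log2 difference with Tat was -1.58 (SE 0.04, adjusted p = 2.69e-17, limma), a fold of 2.98, and -0.94 after scaling. Between the genotypes it was 0.34 (SE 0.05, adjusted p = 4.82e-06), and after scaling, which subtracts the upward shift of the typical gene, it was 0.12 (adjusted p = 0.111).

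Of 14 further genes of the IGF system, 6 were tested. With Tat 0 were called higher and 4 lower, against 17% and 67.6% of all tested genes. In ΔMye Tat 2 were higher and 1 was lower than in F/F Tat, against 38.8% and 8.87%. At an unadjusted p under 0.05 the count of higher genes with Tat was 0 as well (limma). After scaling 2 were called higher and 3 lower, against 37.25% and 38.0% of all tested genes. Insr, the insulin receptor, fell from 5.93 to 0.686 TPM (log2 difference -2.96), and Igf2r, which takes up IGF-2, fell from 69.1 to 18.3 TPM. Both were higher in ΔMye Tat, at 1.24 and 33.0 TPM, by 0.78 and 0.82 on the log2 scale. Igfbp6, a binding protein, fell from 8.92 to 3.88 TPM on the deposited scale, and the difference of -1.18 was not called with quantile normalization (-0.34, adjusted p = 0.0605, limma). It was lower again in ΔMye Tat at 2.63 TPM, a call (adjusted p = 0.00441, limma) that was lost, at adjusted p up to 0.0127, without any 1 of F/F Tat libraries 8 and 10 or ΔMye Tat libraries 19, 20 and 21, and in the fit of 2 groups (0.0155). Igf1r was below the filter, at a mean of 0.880, 0.742 and 0.573 TPM in F/F PBS, F/F Tat and ΔMye Tat.

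**Figure D2:**
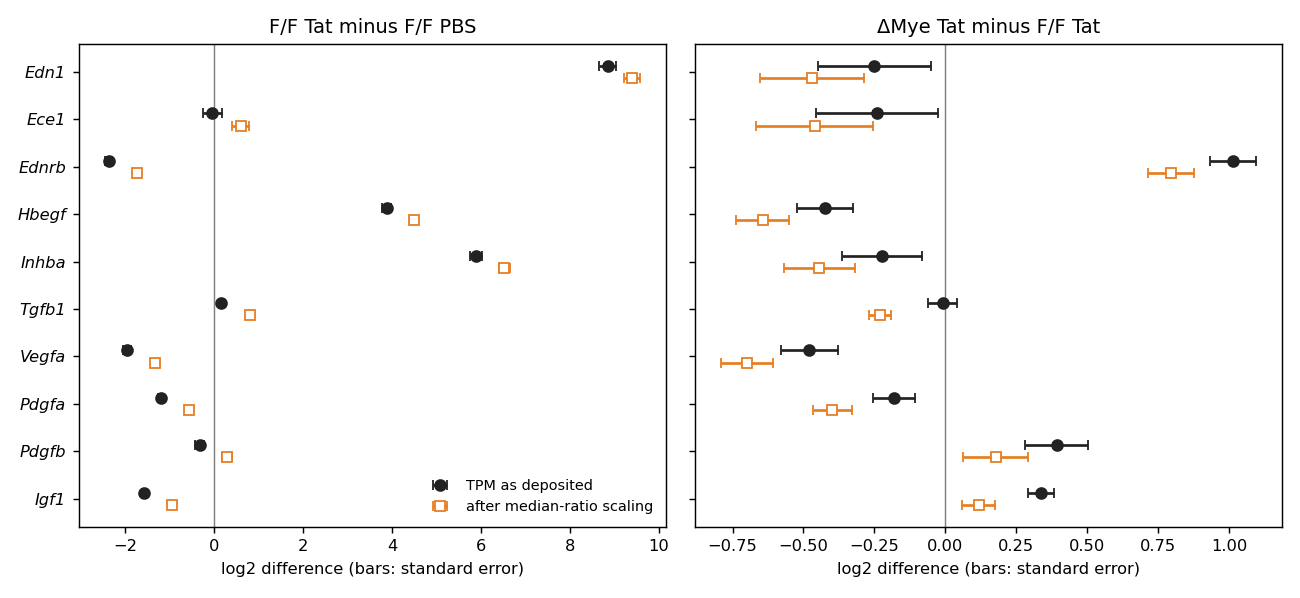
Log2 difference of each of the 10 genes for F/F Tat minus F/F PBS (left, all 12 F/F libraries) and ΔMye Tat minus F/F Tat (right, on a narrower axis), with standard errors from limma; filled circles are TPM as deposited and open squares are after median-ratio scaling. Scaling moves all values up on the left and down on the right; Edn1 (8.86), Inhba (5.90) and Hbegf (3.88) stand apart on the left, and on the right Ednrb (1.01) is the highest.

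Over the 7 systems, 94 further genes were listed and 45 were tested, of which 18 were called higher and 18 lower with Tat, and 13 higher and 10 lower in ΔMye Tat than in F/F Tat (limma, the same limit on the adjusted p). Of all tested genes, 17% and 67.6% were called higher and lower with Tat, and 38.8% and 8.87% between the genotypes. After median-ratio scaling the 45 split into 25 higher and 14 lower with Tat, against 37.2% and 38.0% of all tested genes. Between the genotypes the balance turned, with 9 higher and 15 lower, against 15.9% and 19.4%. The median log2 difference of the 45 was 0.06 with Tat and 0.18 between the genotypes, beside -0.65 and 0.22 for all tested genes, and after scaling it was 0.69 and -0.02. Since the lists were chosen with earlier results known, these contrasts with all genes are not independent of the data.

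**Figure D3:**
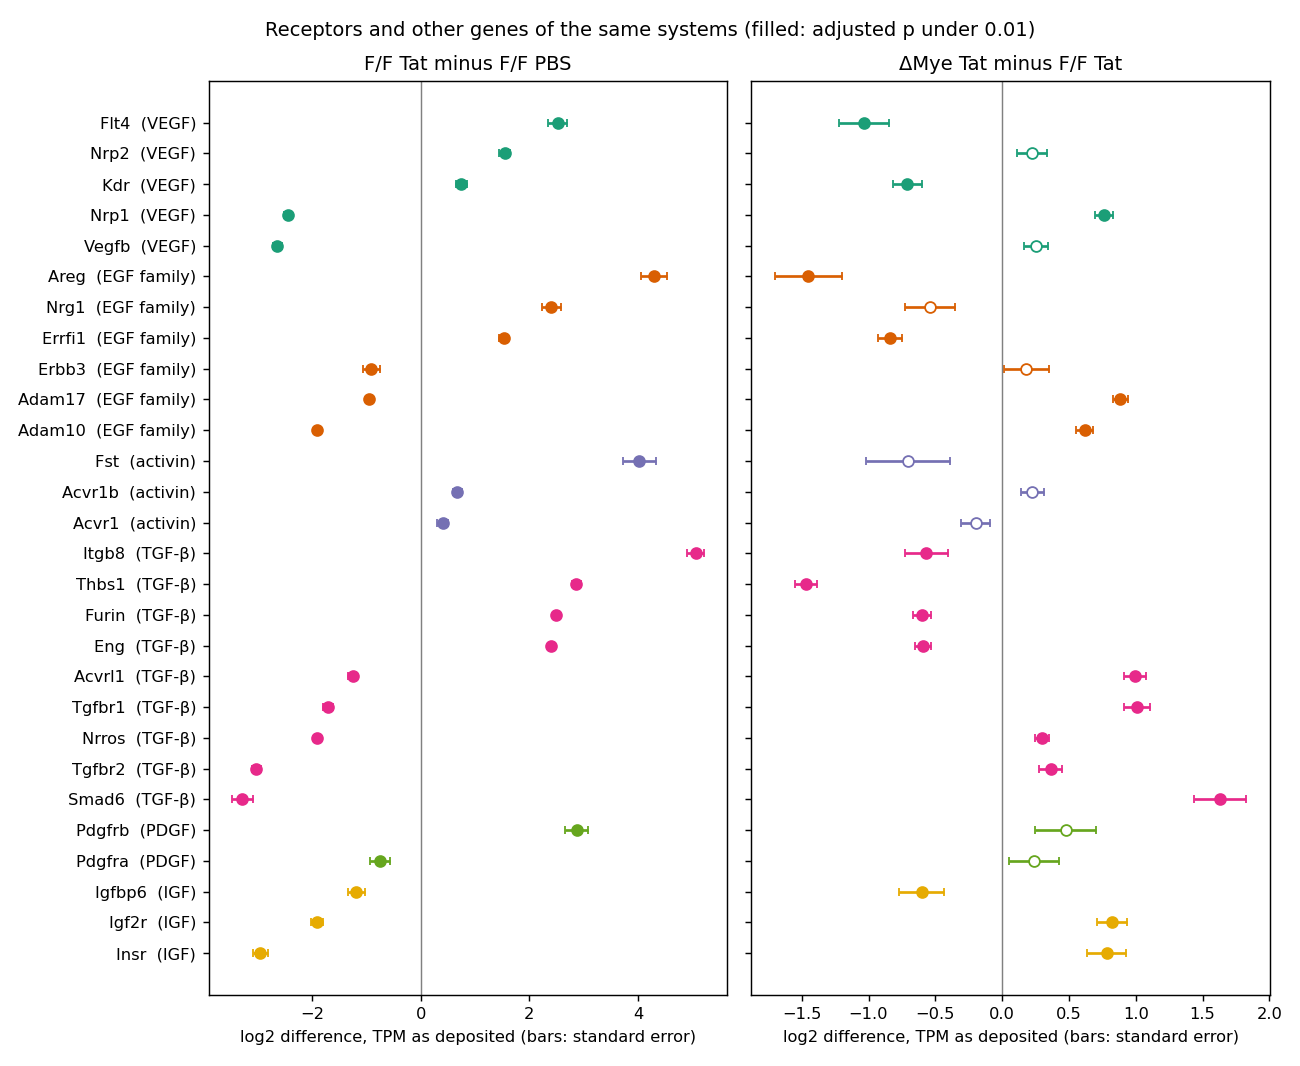
Log2 difference with standard error (limma, TPM as deposited) of the receptors, enzymes and related genes with the highest and lowest called values in each system, for F/F Tat minus F/F PBS (left) and ΔMye Tat minus F/F Tat (right); colours mark the system, filled points have an adjusted p under 0.01 and open points do not. Itgb8 (5.06), Areg (4.30) and Fst (4.02) are the highest on the left and Smad6 (-3.28) the lowest; on the right Smad6 (1.63) is the highest and Thbs1 (-1.47) the lowest.

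The order of the 10 genes by TPM, a scale that accounts for transcript length, was rearranged by Tat. In F/F PBS, Tgfb1 and Igf1 led with means of 346 and 209 TPM, followed by Vegfa at 33.1 TPM, then Ednrb, Ece1 and Pdgfa, whose neighbouring ranges overlapped, then Inhba, Pdgfb and Hbegf, with Edn1 last at 0.398 TPM. In F/F Tat, Inhba led at 648 TPM, followed by Tgfb1 at 386 TPM, Edn1 at 212 TPM and Igf1 at 70.2 TPM, none of which overlapped with its neighbour. Hbegf at 25.7 TPM overlapped with Ece1 at 20.6 TPM, Vegfa at 8.40 TPM with Pdgfa at 7.49 TPM, and Ednrb at 4.47 TPM with Pdgfb at 3.23 TPM. In ΔMye Tat the first 6 places were the same as in F/F Tat, and Ednrb at 9.09 TPM stood above Pdgfa and Vegfa, whose libraries overlapped, with Pdgfb last at 4.28 TPM.

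**Figure D4:**
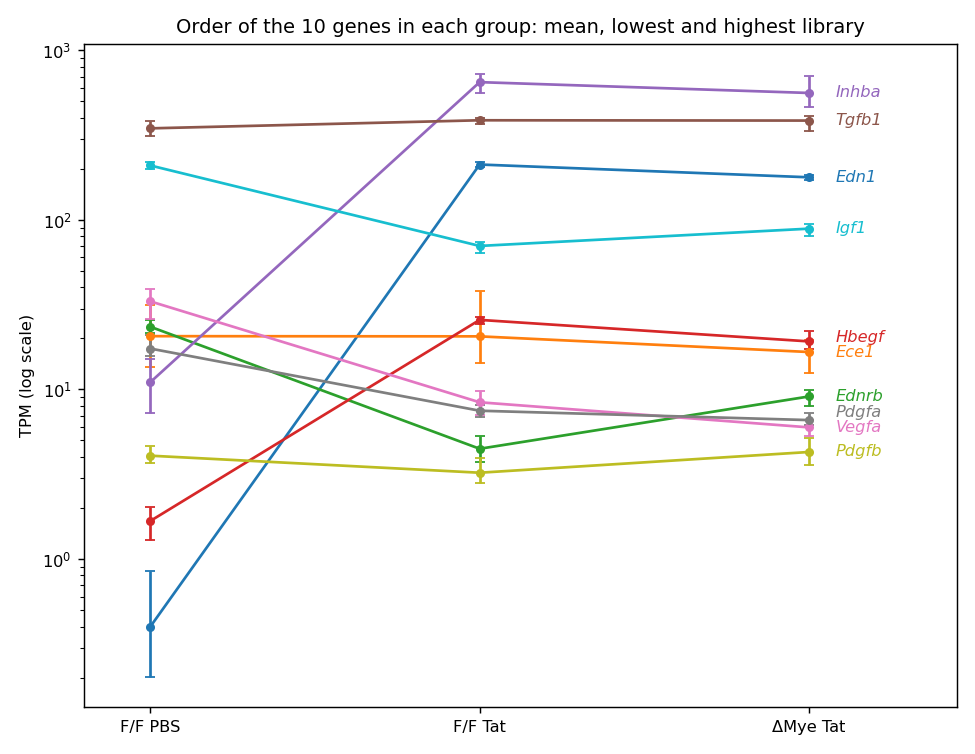
Mean TPM (points, log axis) of the 10 genes in F/F PBS, F/F Tat and ΔMye Tat, with bars from the lowest to the highest library; lines join the means of 1 gene and stand for no time course. Edn1 moves from the last place in F/F PBS to the third in F/F Tat and ΔMye Tat, and Ednrb moves from 4.47 TPM in F/F Tat to 9.09 TPM in ΔMye Tat.

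Set side by side, the 5 genes that changed by more than 3-fold with Tat differed in how ΔMye Tat compared with F/F PBS. Against F/F PBS, the log2 difference in ΔMye Tat was 8.61 for Edn1, 5.68 for Inhba and 3.45 for Hbegf, each below its value in F/F Tat. For Ednrb it was -1.36, against -2.37 in F/F Tat. For Vegfa it was -2.44, against -1.96 in F/F Tat. These values share the F/F PBS libraries, and genotype and Tat cannot be told apart in them.

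The genes nearest to each of these 5 in the pair of log2 differences (Tat, then genotype) were sought by Euclidean distance among 6679 tested genes whose mean reached 10 TPM in 1 group or more. For Edn1 they were Ptgs2, the inducible cyclooxygenase, at a distance of 0.85, Il6 at 1.26 and Slamf1 at 1.30. Ptgs2 rose from 8.54 to 2429.8 TPM and had 1500 TPM in ΔMye Tat. No gene lay as near to Edn1 as the nearest ones did to the other members. For Inhba they were Has1, a hyaluronan synthase, Slco3a1 and AA467197, at distances from 0.12 to 0.24. For Hbegf they were Ms4a4c, Il18 and Vnn3, from 0.15 to 0.18. For Ednrb they were B4galnt1, 1190007I07Rik and Zfp971, from 0.0700 to 0.0750, and for Vegfa Gprc5b, Ceacam1 and the transcription factor gene Klf4, from 0.12 to 0.24.

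Cells other than macrophages can make several of these factors, and in bulk RNA fewer cells of a type and less RNA per cell cannot be told apart. Of 8 endothelial markers, 1, 3 and 2 had a mean of 1 TPM or more in F/F PBS, F/F Tat and ΔMye Tat, with summed levels of 17.4 to 26.3, 8.17 to 13.5 and 6.40 to 13.4 TPM. Emcn, Cldn5 and Robo4 were at 0 in all libraries, and Cdh5 rose from 0.193 to 2.40 TPM with Tat and had 1.12 TPM in ΔMye Tat. Vwf made up most of the sum, with means of 20.02, 7.21 and 8.13 TPM. Without it the other 7 summed to 1.20 to 2.41, 1.95 to 6.52 and 0.940 to 3.22 TPM. Of 8 mesothelial markers, 4 reached 1 TPM in F/F PBS and 0 in either Tat group, with sums of 6.01 to 8.59, 3.00 to 4.68 and 2.13 to 2.66 TPM. These sums fell from group to group in that order. Of the 10 genes, the means of Vegfa, Pdgfa and Ece1 did so too, that of Ece1 only from 20.61 to 20.56 TPM with Tat. Pf4 and Lyz2 also followed this order. The mesothelial markers Krt8 and Lrrn4 did not: their means were higher in ΔMye than in F/F libraries under Tat (0.639 against 0.567 TPM, and 0.0848 against 0.0716 TPM). A fall with Tat was common, called in 67.6% of all tested genes, and the share with this order over the 3 groups was not counted. Of 8 fibroblast markers, 5, 4 and 4 reached 1 TPM, with sums of 28.0 to 37.8, 27.8 to 32.5 and 16.1 to 20.8 TPM. Of 8 platelet markers, only Pf4 reached 1 TPM, with means of 468, 375 and 152 TPM, and Gp1bb was at 0 in all libraries. The summed macrophage markers also moved with the groups, at 25796 to 26807, 10309.8 to 10890 and 8019 to 8344 TPM. Lyz2, where the Cre is inserted, carried this shift: the other 7 markers summed to 3816 to 4181, 3421 to 3644 and 3727 to 3865 TPM, and of these Cd14 rose from 203 to 842 TPM with Tat and Csf1r fell from 381 to 64.0 TPM. Of the smooth muscle markers, 2 of 6 reached 1 TPM in F/F PBS and 1 in each Tat group, with sums between 2.64 and 5.53 TPM. The mast cell, lymphocyte and neutrophil sums lay between 25.1 and 46.5, between 10.4 and 24.6 and between 56.9 and 106 TPM. The part of these shifts in the levels of the 10 genes was not tested.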

How the data were processed

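RNA from 17 libraries of peritoneal macrophages was sequenced on the Illumina platform. The authors quantified the reads with Salmon against the Ensembl annotation of GRCm38 and deposited TPM values, transcript abundances scaled to a fixed total per library, for 21683 genes; the labels name mm10. Neither the Salmon version nor the strand setting is given in the sources used here, and TPM keeps no depth. The study's own test needs counts, so limma 3.58.1 in R 4.3.3 was used instead (lmFit, contrasts.fit and eBayes with trend, 14 residual degrees of freedom), on log2(TPM + 0.1) of the 10451 genes that reached 1 TPM in 5 libraries or more. Fold changes are on this scale and understate those of low genes. All 3 groups entered 1 fit, and Benjamini-Hochberg adjusted p-values were compared with the study's limits, an adjusted p under 0.01 and a fold over 3. Single genes were also tested by exact two-sided permutation of mean TPM. The limma step was tested on simulated data. Alternatives were other pseudocounts and filters, median-ratio scaling, quantile normalization, robust eBayes with array weights, a fit of 2 groups, and leaving out 1 library at a time. The genes named beside the 10 were, in each system, the 3 highest and 3 lowest called differences of each comparison, with low or absent genes, and for each gene called with Tat by fold the 3 nearest patterns. The 10 genes and all lists were chosen with earlier results of these data known. Positions come from GENCODE on GRCm38, and upstream windows from RefSeq on GRCm38.p6. A further engineered allele that the mice of all 3 groups carried is not reported here.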

Additional observations from a re-analysis of the deposited data

Results flagged for a closer look

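Over the 30 sets of libraries examined (10 genes in 3 groups), each was searched for a library set apart from the rest of its group by Dixon's ratio, which chance passes in about 1 of 20 sets. There was 1 such library. Ece1 was at 37.9 TPM in F/F Tat library 8, the next highest library was at 19.96 TPM, and this gap took 0.758 of the range of the group. Without that library the log2 difference of Ece1 with Tat was -0.23, and it did not pass the test with or without it.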

How the results depend on the processing

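No paired analysis was made, because the labels do not say whether libraries of different groups came from the same mouse. Median-ratio scaling changed the counts most: 1 of the 10 genes was then higher and 5 were lower in ΔMye Tat than in F/F Tat, and 1, Ednrb, was lower by more than 3-fold with Tat. Other counts stayed within 1.5 times of those reported. The sign of Ece1 with Tat turned to 0.59 on median-ratio scaling, 0.48 with quantile normalization and 0.055 with robust eBayes; leaving out 1 library gave from -0.23 to 0.090, above 0 without F/F PBS library 2 (0.090) or F/F Tat library 11 (0.014) or 12 (0.049). Tgfb1 turned to -0.088 with Tat under quantile normalization. Between the genotypes it turned to 0.014 with robust eBayes; leaving out 1 library gave from -0.033 to 0.041, above 0 without F/F Tat library 11 (0.00049) or ΔMye Tat library 23 (0.041). Pdgfb turned to 0.29 and 0.68 with Tat on median-ratio scaling and quantile normalization. Under quantile normalization Erbb3 and Pdgfra turned to 0.41 and 0.51 with Tat and to -0.13 and -0.068 between the genotypes, and Erbb3 to -0.011 on median-ratio scaling. The cause was not tested. For the 10 genes, 317 of the values with 1 library left out kept direction and call, 18 lost a call (Tgfb1 with Tat, Pdgfb in both comparisons) and 5 changed sign. Leaving out 1 library kept the log2 difference with Tat between 8.74 and 9.07 for Edn1, 5.79 and 6.00 for Inhba and 3.81 and 3.94 for Hbegf. TPM carries no depth, so the error of low values, such as Edn1 in F/F PBS, is known from their spread alone.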
